A study of Rattus norvegicus with 60 samples.

Results

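The translation initiation and elongation factors comprised every gene whose single symbol in the probe annotation began with Eif1 to Eif6, Eef1 or Eef2, with the Eif2ak kinases left out. The rule found 51 genes on 53 probe sets, out of 14324 genes with 1 symbol and 27342 probe sets on the array. Eef1a1 and Eif3h had 2 probe sets each, which were averaged, and the pair correlated at r = 0.997 for Eef1a1 and r = 0.837 for Eif3h over the 60 arrays. All 53 probe sets passed the filter on noisy duplicates, which kept 27338 of all 27342 and so does not set the factors apart. Some relatives, namely Eif1, Eif3f, Eif3g, Eif3m, Eif4a3, Eif4ebp3, Eif4g1 and Eif5a2, were not analysed here.

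RNA of the lesion segment of the spinal cord was measured on Affymetrix rat gene arrays, 1 array per rat. All 60 animals were female Long Evans rats of 8 or 9 weeks, anaesthetised with Zoletil and xylazine. Spinal cord injury (SCI) was a contusion by a falling weight after a thoracic laminectomy, and the S groups were sham operated without injury. Methylprednisolone (MP), a synthetic glucocorticoid, was given intravenously at 30 mg/kg in 70% ethanol, and the controls received the ethanol alone (EtOH). The injured groups were SCI-EtOH and SCI-MP and the sham groups S-EtOH and S-MP. Each held 2 rats at each of 7 times after medication, namely 2, 4, 6 and 8 h, 12 h, 1 day (24 h) and 48 h. S-EtOH and SCI-EtOH also held 2 rats at 0 h. Every group therefore shared surgery, anaesthesia and ethanol, and no MP rat was taken at 0 h. The deposited values are centred log2 values, so each compares 1 gene across rats and no gene's level can be read or set against that of another. For the same reason the presence of the cord's own cell types could be followed only by changes in their marker genes. In whole tissue, fewer cells of a type and less RNA per cell cannot be told apart.

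Translation begins when eIF2 brings the initiator tRNA to the small ribosomal subunit, eIF3 holds that complex together, and the eIF4 factors bind the cap of the mRNA and unwind its leader. Start codon choice is set by eIF1, eIF1A and eIF5, after which eIF5B joins the large subunit, eEF1A delivers each aminoacyl-tRNA, and eEF2 moves the ribosome along. The pathway is tuned by stress kinases that phosphorylate eIF2, by the growth kinase mTOR, which releases eIF4E from its binding proteins, and by a kinase that inhibits eEF2. Neurons replace the common form Eef1a1 with Eef1a2 during development.

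Of the 51 genes, 44 matched a promoter of RefSeq (build GRCr8), each holding 250 bases before and 50 after the transcription start. The mRNAs of many translation factors open with a terminal oligopyrimidine (TOP) tract, a C followed by pyrimidines, through which mTOR controls their translation. A C followed by at least 4 pyrimidines, starting within 5 bases of the annotated start and read on the gene's strand, stood in 9 of the 44 promoters (20.5%), against 17% of all 27457 promoters. The windows of 40 bases around the start are shown for 3 genes with such a tract, printed in capitals, and for Eef1a2, the neuronal partner of Eef1a1, which had none.
Eef1a1, chr8:88225050-88225089, minus strand: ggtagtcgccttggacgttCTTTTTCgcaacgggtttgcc
Eef1b2, chr9:72074071-72074110, plus strand: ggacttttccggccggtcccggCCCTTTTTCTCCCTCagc
Eif2a, chr2:144911340-144911379, plus strand: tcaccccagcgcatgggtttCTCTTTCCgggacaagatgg
Eef1a2, chr3:188652614-188652653, minus strand: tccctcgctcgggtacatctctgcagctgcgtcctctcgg

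The E-box CACGTG, whose letters read the same on both strands and which Myc and related factors bind, stood in 8 of the 44 promoters (18.2%), against 6.65% of all promoters. They were those of Eef2, Eef2k, Eif1b, Eif3a, Eif3b, Eif4e, Eif4h and Eif5a, and that of Eif4e held 2 copies. These genes differed in their late change, the injury difference at 24 and 48 h minus that at 2 to 6 h. It was −0.60 for Eif1b, −0.10 for Eef2k, 0.10 for Eif4h and 0.57 for Eif3a on the log2 scale. Windows of 60 bases with the E-box in capitals are given for Eif3b, Eif5a, Eef2 and Eif4e, the cap-binding protein. The first 3 were picked as raised in the injured cord at 24 and 48 h.
Eif3b, chr12:19334793-19334852, minus strand: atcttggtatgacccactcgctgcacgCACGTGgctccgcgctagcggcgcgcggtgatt
Eif5a, chr10:55143395-55143454, minus strand: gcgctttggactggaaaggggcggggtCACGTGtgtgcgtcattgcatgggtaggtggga
Eef2, chr7:9189282-9189341, minus strand: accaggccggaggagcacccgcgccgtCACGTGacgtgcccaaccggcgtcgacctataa
Eif4e, chr2:229740503-229740562, plus strand: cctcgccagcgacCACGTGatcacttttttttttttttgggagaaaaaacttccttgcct
The stress-response element of ATF4 (TGATG, any base, then AA), searched on both strands, stood in 1 member promoter, that of Eif2s2 (2.3% against 3.82% of all), and the glucocorticoid response element (GNACA, any 3 bases, then TGTNC), searched on both strands, in 0 of 44 (0.422% of all). A match describes these letters in this window and is no evidence that a factor binds there.

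Across the series, array SDs of the centred values lay between 0.156 and 0.530, with the widest in injured rats. The 2 rats of SCI-EtOH at 6 h stood apart from each other, with r = 0.164 between them, the lowest of 30 pairs. Groups were compared with limma, and a gene was called when its Benjamini-Hochberg adjusted p over all 14324 genes was under 0.05. The comparisons of SCI-EtOH with S-EtOH and of SCI-MP with SCI-EtOH share the SCI-EtOH rats, and the former shares the S-EtOH rats with the comparison of S-MP with S-EtOH.

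The factors as a group stood higher in the injured cord at 24 and 48 h, where 32 of 51 were called higher, or 25 with quantile normalization between arrays. In SCI-EtOH the median centred log2 value over the 51 factors was −0.16 and −0.11 in the 2 rats at 2 h, 0.46 in both rats at 24 h, and 0.37 and 0.33 at 48 h. In S-EtOH the same median stayed between −0.12 and 0.10 in all 14 rats from 2 to 48 h. The groups therefore did not overlap at 24 and 48 h, and at 2 h they stood close together, the higher injured rat at −0.11 and the lower sham rat at −0.12.

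**Figure D1:**
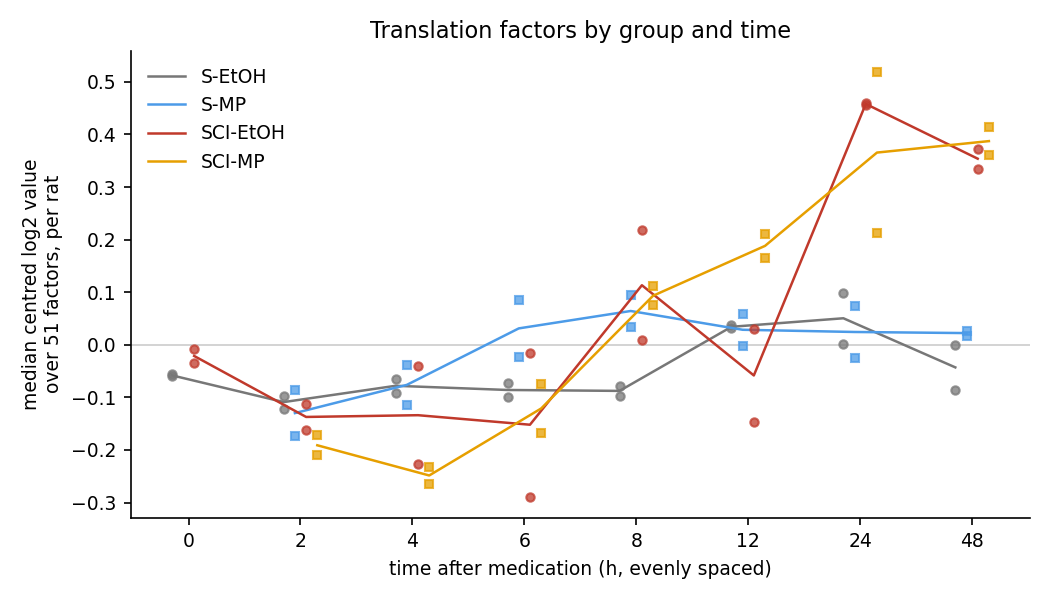
Median centred log2 value over the 51 factors (vertical axis) against time after medication in hours (evenly spaced), 1 point per rat, with a line through the mean of the 2 rats of each group. Both injured groups rise to between 0.21 and 0.52 at 24 and 48 h, while the sham groups stay between −0.17 and 0.10 at all times.

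The difference between SCI-EtOH and S-EtOH was larger at 24 and 48 h than at 2, 4 and 6 h for 30 of the 51 factors (limma, 16.7% of all genes) and smaller for 2 (14.8% of all genes). The median change of the difference was 0.44 over the factors, on the log2 scale, against −0.0025 over all genes. At 24 and 48 h alone, 32 factors were higher in SCI-EtOH (25.4% of all genes) and 4 lower (22.2%), with a median difference of 0.41 against 0.047 over all genes. At 2 to 6 h, 4 were higher (18.4%) and 11 lower (16.7%), with a median of −0.050. That early split depended on the scaling, with 13 higher and 7 lower and a median of 0.024 after quantile normalization between arrays, and 1 higher and 6 lower with array weights.
With quantile normalization the late minus early count fell to 11 higher and 1 lower (5.61% and 6.95% of all genes) and the median to 0.18. At 24 and 48 h alone 25 factors were higher and 3 lower (19.3% and 20.6% of all genes), with a median of 0.25. Of the 36 late calls, 24 were lost or shrank by more than 1.5 times. Quantile normalization gives every array the same spread of values. At 24 h the array SDs were 0.516 and 0.478 in SCI-EtOH and 0.183 and 0.195 in S-EtOH. Smaller values under this setting therefore cannot tell a weaker change from the rescaling of the wider arrays. All 11 factors with a late minus early rise had been called without quantile normalization, namely Eef1e1, Eif2b1, Eif2b3, Eif2s2, Eif3b, Eif3c, Eif3d, Eif3i, Eif4a1, Eif4ebp1 and Eif5a.

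Markers of other cells moved over the same hours. At 24 and 48 h all 8 neuron markers were lower in SCI-EtOH, with a median log2 difference of −2.21. All 6 astrocyte markers were lower (median −1.17), and 5 of 6 neutrophil markers were higher (median 2.04). Markers of oligodendrocytes, of microglia and macrophages, of endothelium and of erythrocytes were also listed, and their values at these times are not given here. The part of these cells in the rise of the factors was not tested.

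eIF2 consists of Eif2s1, the alpha subunit that stress kinases phosphorylate, Eif2s2 and Eif2s3, and eIF2B (Eif2b1 to Eif2b5) is the exchange factor that recharges it with GTP. Of the 10 genes of this group, which also took in the alternative initiator factors Eif2a and Eif2d, all 10 had a positive late minus early change. Of them 8 passed the test (16.7% of all genes higher), and the median over the 10 was 0.46. With quantile normalization 9 were positive and 3 passed (5.61% of all genes higher).
Eif2s2 read 0.88 and 0.46 in the 2 SCI-EtOH rats at 24 h and 0.72 and 1.09 at 48 h, against −0.26, −0.14, −0.41 and −0.21 in S-EtOH. Every injured rat lay above every sham rat, and the difference at these times was 1.04 ± 0.11 (SE, n = 4 rats a group). Its late minus early change was 1.12 ± 0.14 (adjusted p = 4.1e-07), the largest among the 51.
Eif2b3, the eIF2B gamma subunit, read 0.94, 0.91, 0.79 and 0.86 in SCI-EtOH against −0.13, −0.01, −0.07 and −0.12 in S-EtOH. The groups did not overlap, and the late difference was 0.96 ± 0.10, or 0.59 with quantile normalization. Eif2s1 also rose late, by 0.77 ± 0.12 at 24 and 48 h. Eif2s3, the gamma subunit that carries the tRNA, had a late difference of 0.055 ± 0.16 and was not called there.

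The eIF3 scaffold followed the same course. All 10 measured subunits had a positive late minus early change, with a median of 0.59, and 7 passed the test (16.7% of all genes higher). With quantile normalization all 10 were positive and 4 passed (5.61% of all genes higher).
Eif3b, a core subunit, read 1.07 and 1.01 in SCI-EtOH at 24 h and 0.77 and 0.92 at 48 h, against −0.14, 0.00, −0.26 and −0.07 in S-EtOH. The lowest injured rat lay well above the highest sham rat, and the change from early to late was 1.04 ± 0.12 (adjusted p = 9.9e-08). Eif3d, which can itself bind the cap, changed by 1.04 ± 0.13 and Eif3c, another core subunit, by 1.04 ± 0.16. With quantile normalization these changes were 0.57 for Eif3b, 0.68 for Eif3d and 0.62 for Eif3c, each still called. The loosely bound subunit Eif3j changed by 0.24 ± 0.24 and was not called.

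Among the cap-binding and helicase factors, 4 of 9 rose from early to late and 0 fell (16.7% and 14.8% of all genes), with a median of 0.40. With quantile normalization 1 rose (5.61% of all genes). The paired helicases parted. Eif4a1, the form of proliferating cells, read 0.73, 0.67, 0.66 and 0.80 in SCI-EtOH at 24 and 48 h, against −0.33, −0.09, −0.33 and −0.29 in S-EtOH. Eif4a2, the form abundant in brain, read −0.21, −0.33, −0.16 and −0.62 against 0.16, 0.12, 0.14 and 0.04.
Each gene separated the groups, in opposite directions, with late differences of 0.98 ± 0.12 for Eif4a1 and −0.44 ± 0.13 for Eif4a2. Over all 7 times Eif4a2 fell by 0.48 ± 0.07 on the log2 scale (adjusted p = 3.0e-07). Eif4e2, a cap-binding repressor, was 0.70 ± 0.08 higher late, while Eif4e itself had a late difference of 0.12 ± 0.18 and its relative Eif4e3 one of −0.15 ± 0.11, neither called. The scaffold Eif4g3 had a late difference of −0.085 ± 0.12 and Eif4g2, a scaffold that lacks the eIF4E site, one of 0.063 ± 0.12.

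The proteins that hold eIF4E away from the scaffold differed from each other. Eif4ebp1, a main mTOR target, read 0.98 and 1.31 in SCI-EtOH at 24 h and 0.72 and 1.41 at 48 h, against −0.09, 0.19, 0.01 and 0.02 in S-EtOH. The groups did not overlap, and the late difference was 1.07 ± 0.14, or 0.54 with quantile normalization. Eif4ebp2, the form prominent in brain, had a late difference of 0.055 ± 0.12 and was not called.
Eif5a, which eases the ribosome through difficult stretches and carries the amino acid hypusine, was 0.60 ± 0.07 higher late, or 0.34 with quantile normalization. Its late minus early change was 0.71 (limma adjusted p = 1.0e-07), or 0.36 with quantile normalization (adjusted p = 0.0035). Eif6, which keeps free large subunits apart, was 0.55 ± 0.14 higher late.

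Of the 6 factors of start site selection, 4 rose from early to late and 1 fell (16.7% and 14.8% of all genes). With quantile normalization limma called 0 of these rises and the 1 fall (5.61% and 6.95% of all genes). Eif1b, a close relative of the start codon factor eIF1, was the one that fell. It read −0.08, −0.16, −0.34 and −0.36 in SCI-EtOH at 24 and 48 h, against 0.16, 0.09, −0.01 and 0.10 in S-EtOH, but was 0.28 ± 0.09 higher in SCI-EtOH at 2 to 6 h. Its late minus early change was −0.60 ± 0.15 (adjusted p = 0.0019), and its late fall alone was not called with quantile normalization (adjusted p = 0.145).
The 4 modifying enzymes, namely the eEF2 kinase Eef2k and the lysine methyltransferases Eef1akmt1, Eef1akmt2 and Eef2kmt, had a median change of 0.016. In the late minus early contrast limma called 0 of 4 (16.7% of all genes higher, 14.8% lower), and 0 were at an unadjusted p under 0.05.

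**Figure D2:**
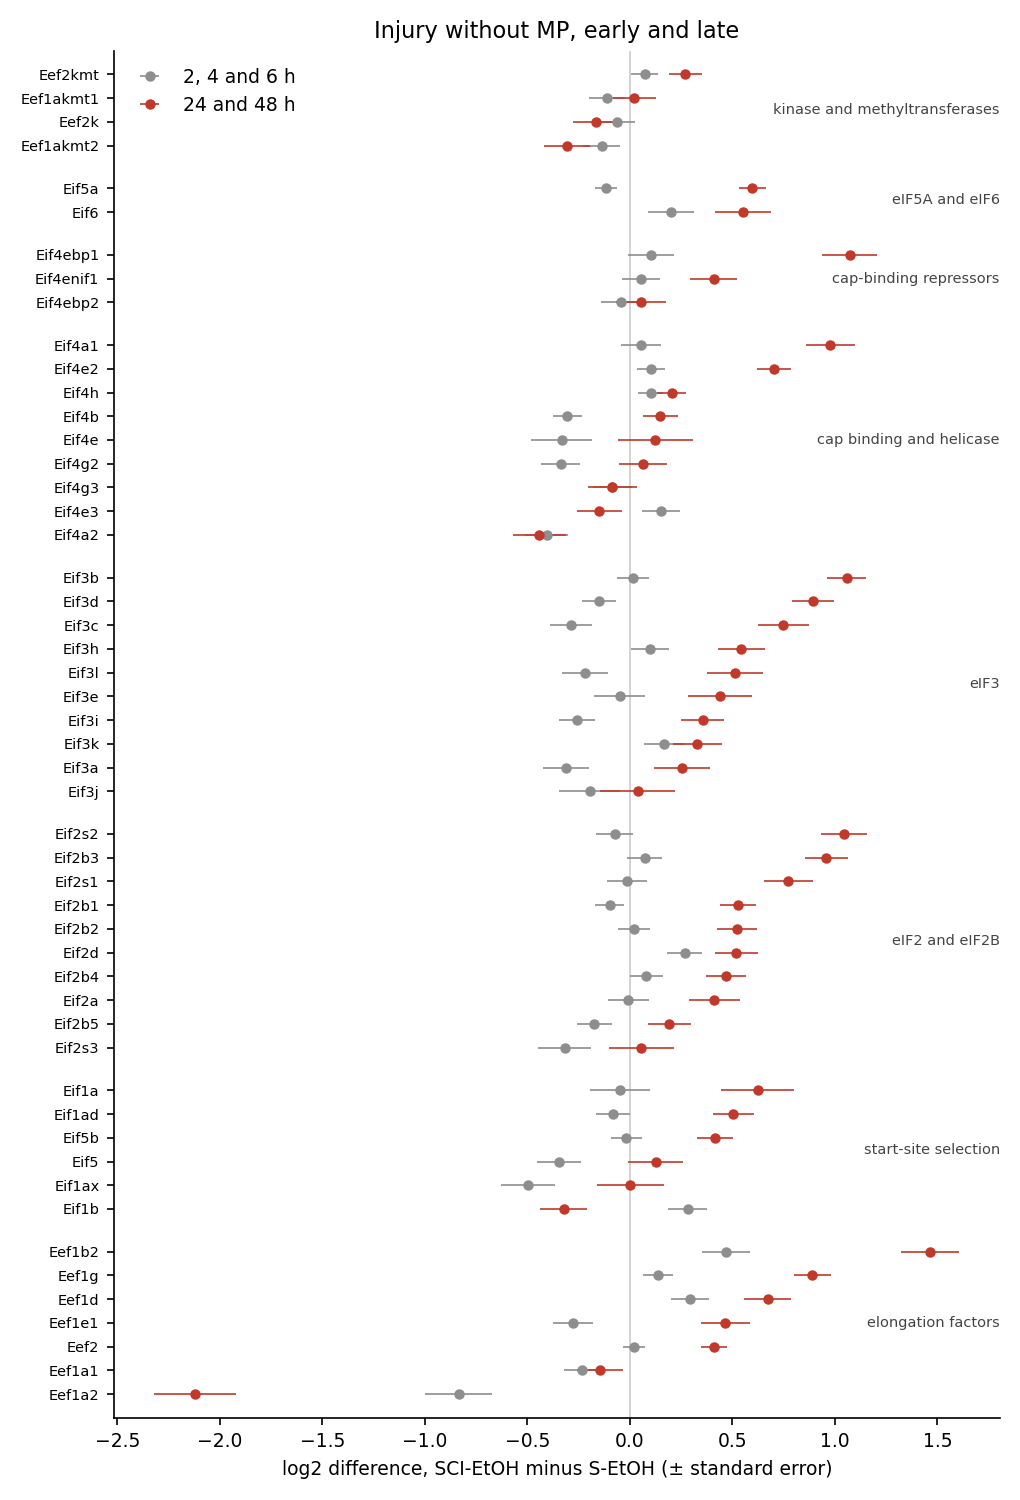
Log2 difference of SCI-EtOH from S-EtOH (horizontal axis, ± SE) for each factor, grouped by role, at 2, 4 and 6 h (grey, 6 rats a group) and at 24 and 48 h (red, 4 rats a group). Most red points lie right of the grey ones, with Eef1b2 at 1.47 and Eef1a2 at −2.12 as the extremes at the late times.

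The elongation factors held both extremes. Eef1a2, the neuronal and muscle form of eEF1A, ran from 0.00 to 0.44 in the 14 S-EtOH rats from 2 to 48 h (median 0.26). In the 14 SCI-EtOH rats it ran from −2.36 to 0.01 (median −1.25). The highest injured rat, at 6 h, reached the bottom of the sham range, and all others lay below it.
Over 7 times Eef1a2 fell by 1.40 ± 0.11 on the log2 scale (adjusted p = 2.5e-13), and the difference deepened from −0.84 ± 0.16 at 2 to 6 h to −2.12 ± 0.20 at 24 and 48 h. With quantile normalization the late difference was −1.32 and the change from early to late −0.28, which was not called. The 5 genes closest to Eef1a2 over the 60 arrays, as a description, were Tmem59l (r = 0.988), Dnm1, Clstn3, Ndrg4 and Cplx1, among them the vesicle proteins Dnm1 and Cplx1. All 8 neuron markers were also lower over 7 times, with a median log2 difference of −1.36, and their part in the fall of Eef1a2 was not tested.

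Eef1b2, an exchange subunit that returns eEF1A to its GTP form, moved the other way. It read 1.42 and 1.40 in SCI-EtOH at 24 h and 1.37 and 1.21 at 48 h, and the 4 S-EtOH rats at these times ran from −0.38 to 0.07. The late difference was 1.47 ± 0.14, and over 7 times it was 0.81 ± 0.08 (adjusted p = 3.0e-11). With quantile normalization the late difference was 0.88 and the late minus early change 0.18, which was not called (adjusted p = 0.661).
The other subunits of this exchange complex, Eef1d and Eef1g, were higher late by 0.67 ± 0.11 and 0.89 ± 0.09. Eef2 was higher by 0.41 ± 0.07, and Eef1e1, a partner of the tRNA synthetase complex, by 0.47 ± 0.12. With quantile normalization these late differences were 0.42 for Eef1d, 0.47 for Eef1g, 0.16 for Eef2 (adjusted p = 0.0488) and 0.25 for Eef1e1, which was no longer called (adjusted p = 0.0599). Eef1a1, in contrast with its exchange factors, had a late difference of −0.15 ± 0.11, which was not called.

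**Figure D3:**
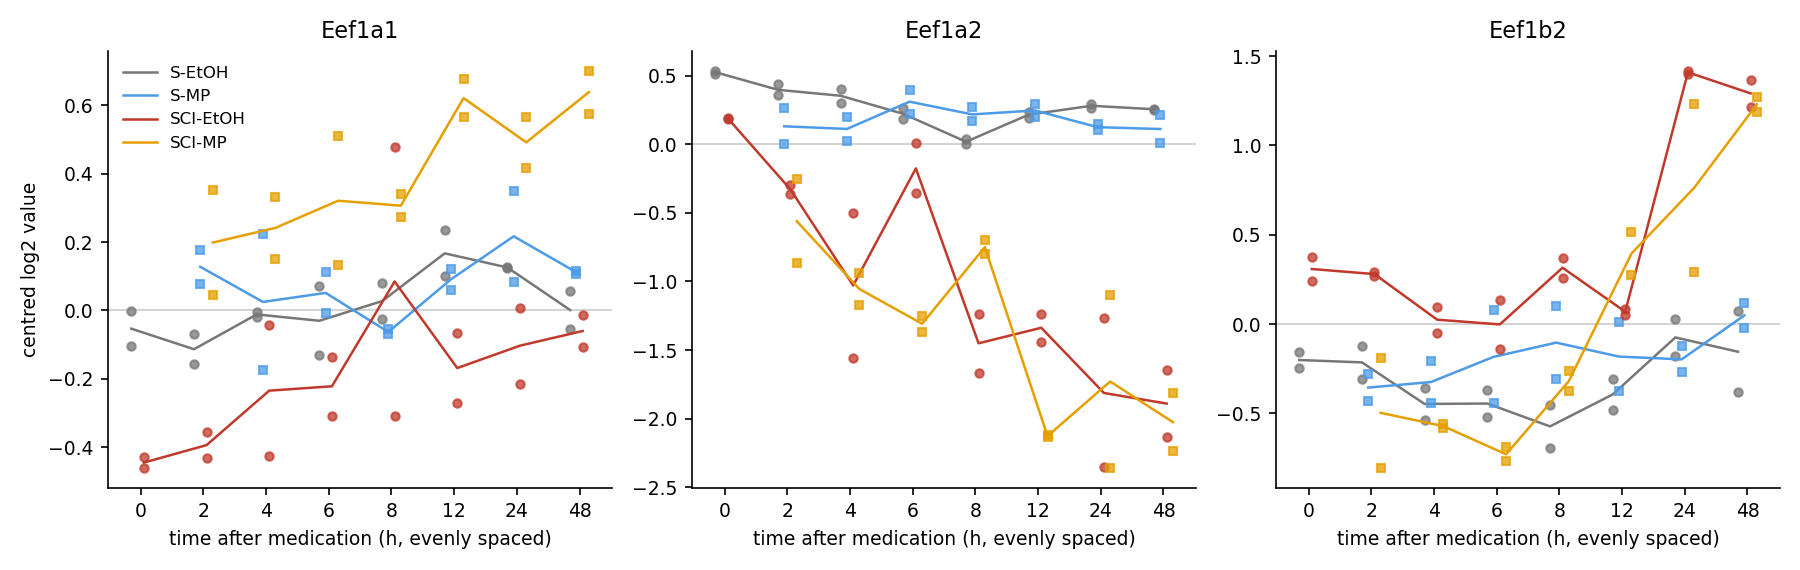
Centred log2 values of Eef1a1, Eef1a2 and Eef1b2 (vertical axes, different ranges) against time after medication in hours (evenly spaced), 1 point per rat, with lines through group means. Eef1a2 falls below −1 in both injured groups, and Eef1a1 is highest in SCI-MP from 12 h on. Eef1b2 passes 1 in SCI-EtOH at 24 and 48 h and in SCI-MP at 48 h, while the SCI-MP rats at 24 h read 1.23 and 0.29.

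Averaged over all 7 times, injury without MP raised 27 of the 51 factors (35.1% of all genes) and lowered 9 (27.5% of all genes), with a median difference of 0.14 against 0.036 over all genes. The largest rises with 1 direction at all 7 times were Eef1b2, Eif4ebp1 (0.41 ± 0.07), Eef1d (0.40 ± 0.06), Eef1g (0.37 ± 0.05), Eif4e2 (0.36 ± 0.04) and Eif6 (0.29 ± 0.07). The falls of this kind were Eef1a2, Eif4a2 and the methyltransferase Eef1akmt2 (−0.22 ± 0.06).
When the difference that SCI-EtOH and S-EtOH already had at 0 h was taken off, which rests on 4 arrays, 1 factor stayed higher (Eif4a1, 0.54) and 1 lower (Eef1a2, −1.06). The SCI-EtOH rats of 0 h were injured too. A 0 h difference also has a larger SE than one over 7 times (for Mtor, 0.114 against 0.043). Calls could therefore be lost without a change in size. At 0 h itself limma called 0 of the 51 (0.0419% of all genes in either direction). At an unadjusted p under 0.05 there were 10, and the share of all genes at that threshold was not taken. With array weights 8 were called higher and 3 lower at 0 h (9.45% and 2.65% of all genes), and with quantile normalization 1 was.

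Time by time, with a moderated F test over the 4 groups followed by Tukey's test on pairs, injury changed 0 factors at 2 h (6.25% of all genes), 3 at 4 h (15.2%), 4 at 6 h (13.4%), 8 at 8 h (20.7%) and 7 at 12 h (27.5%). At 24 h it changed 27 (32.2%), with 25 higher and 2 lower, and at 48 h 24 (31%), with 23 higher and 1 lower. The same 20 factors were higher at both late times. Over all genes 2300 were higher at 24 h and 2283 at 48 h, and their overlap was not counted.
At 12 h all 7 changed factors were lower, namely Eef1a2, Eef1e1, Eif1ax, Eif2s3, Eif3c, Eif4a2 and Eif4b. With quantile normalization the 12 h count was 3 higher and 6 lower, the 24 h count 12 higher and 3 lower, and the 48 h count 17 higher and 1 lower. Shares of all genes at single times were not taken under that setting, and those above do not apply to it. Leaving out 1 rat brought the late counts down to 16 at 24 h, without S-EtOH replicate 1 of that time, and to 16 at 48 h, again without S-EtOH replicate 1. The 6 h count fell to 0 without S-EtOH replicate 1 of that time and with array weights, and rose to 20 without SCI-EtOH replicate 2 of that time, and the 12 h count ran from 4 to 14 when 1 SCI-EtOH rat of 12 h was left out.

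MP given after the injury split the factors. Over 7 times, 17 of 51 were higher in SCI-MP than in SCI-EtOH (10.4% of all genes) and 14 lower (31.7% of all genes), and the median difference was −0.0015 against −0.056 over all genes. The higher ones were led by eIF3 subunits and Eef1a1, and the lower ones by Eef1b2, Eif1b and Eef2. By role, 5 of 10 eIF3 subunits were higher and 2 lower, whereas among the 7 elongation factors 1 was higher and 3 lower.

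Eif3a, the largest eIF3 subunit, ran from −0.19 to 0.90 in the 14 SCI-MP rats (median 0.67) and from −0.84 to 0.43 in the 14 SCI-EtOH rats (median −0.03). The ranges overlapped, but the mean difference was 0.64 ± 0.07 and positive at all 7 times (adjusted p = 2.6e-08). Eef1a1 ran from 0.05 to 0.70 in SCI-MP (median 0.39) and from −0.43 to 0.48 in SCI-EtOH (median −0.18).
The Eef1a1 difference was 0.56 ± 0.06, also positive at all 7 times (adjusted p = 8.3e-09), and each of its probe sets gave it singly (0.54 and 0.58). Rises at all 7 times were also seen for Eif3j (0.49 ± 0.10), Eif3e (0.48 ± 0.08), the subunit-joining factor Eif5b (0.38 ± 0.05), Eif2s3 (0.31 ± 0.08) and 3 further factors with smaller changes, Eef1akmt2, Eif3i and Eif2b1.

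Eef2 moved against Eef1a1. It ran from −0.42 to 0.22 in SCI-MP (median −0.20) and from −0.19 to 0.58 in SCI-EtOH (median 0.13), and the difference was −0.32 ± 0.03 (adjusted p = 9.3e-09), negative at all 7 times. Falls at all 7 times were also seen for Eif1b (−0.34 ± 0.06), the alternative initiation factor Eif2d (−0.30 ± 0.06), the helicase cofactor Eif4h (−0.24 ± 0.04) and Eif4ebp2 (−0.18 ± 0.06). The Eif4ebp2 call was lost with quantile normalization (adjusted p = 0.169), with array weights (adjusted p = 0.104) and in 7 of the 60 fits that left out 1 rat.
Eef1b2 was 0.45 ± 0.08 lower in SCI-MP over 7 times but 0.33 ± 0.20 higher at 12 h. At 48 h it read 1.19 and 1.27 in SCI-MP against 1.37 and 1.21 in SCI-EtOH. Eef2k, the kinase that inhibits eEF2, had a difference of −0.20 ± 0.06 (adjusted p = 0.0082). The eIF4E-binding protein Eif4ebp1 (−0.0041 ± 0.07) and the helicase Eif4a2 (0.0057 ± 0.07) were not called.

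These MP differences stood opposite to the 0 h difference between SCI-EtOH and S-EtOH. Of the 31 factors called with MP, 28 (90.3%) had a 0 h difference of opposite sign, against 4850 of 6024 genes (80.5%) over the whole array. With the 0 h difference added to the MP difference, which rests on 4 arrays and widens the SE, 0 factors were called higher and 0 lower. Whether the 0 h difference carries into the later times was not tested. Neutrophil markers were also lower in SCI-MP (5 of 6, median −0.63), as were 2 of 3 erythrocyte markers (median −0.56), and their part in these differences was not tested.

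**Figure D4:**
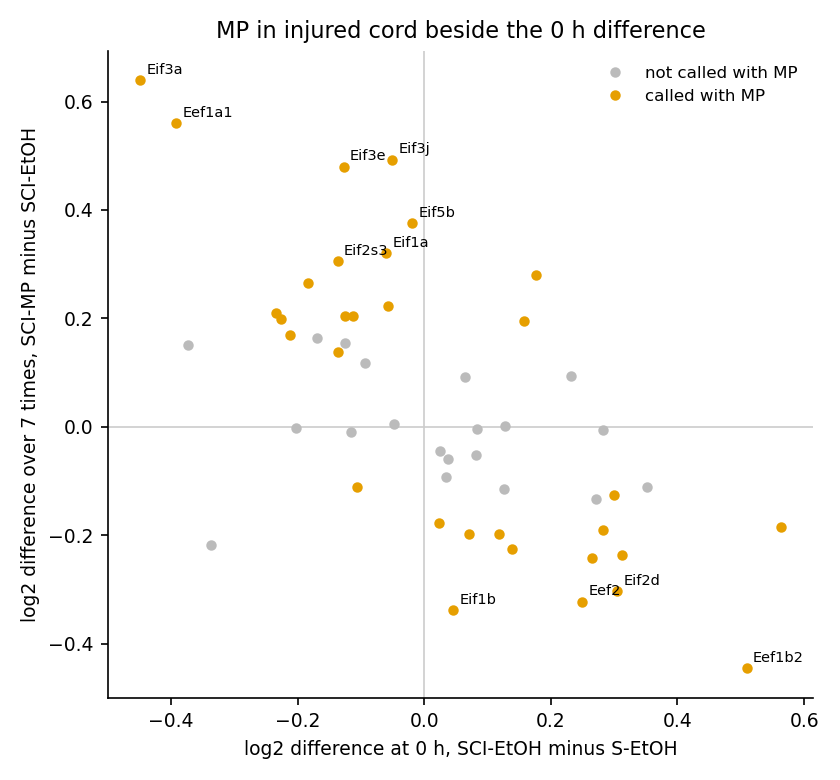
Log2 difference of SCI-MP from SCI-EtOH averaged over 7 times (vertical axis) against the log2 difference of SCI-EtOH from S-EtOH at 0 h (horizontal axis), 1 point per factor, orange where called with MP. Most called points lie in the upper left or lower right, with 28 of 31 opposite in sign.

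The most factors were called with MP at 12 h, and so were the most genes over the whole array (2364 of 14324, against 1896 at 6 h, the next). In SCI-EtOH the median over the 51 factors was 0.03 and −0.15 in the 2 rats at 12 h, below the 0.22 and 0.01 of 8 h, and in SCI-MP it was 0.17 and 0.21. The groups did not overlap at 12 h, and the F test with Tukey's test called 21 factors higher (6.92% of all genes) and 4 lower (9.59% of all genes).
The calls with MP after injury summed to 57 over the 7 times (9.51% of all gene and time pairs). The counts at the other times were 4 at 2 h (5.09% of all genes in either direction), 2 at 4 h (5.94%), 9 at 6 h (13.2%), 4 at 8 h (9.68%), 8 at 24 h (9.26%) and 5 at 48 h (6.84%).
The 12 h calls reached across the initiation steps, with 6 eIF3 subunits, 5 genes of eIF2 and eIF2B and 4 start site factors higher. Eif3e read 0.96 and 1.08 in SCI-MP against −0.23 and −0.49 in SCI-EtOH, a difference of 1.38 ± 0.22. Eif1a read 1.23 and 1.39 against 0.23 and 0.01, a difference of 1.19 ± 0.25.
Both genes separated the groups, as did Eif3j (0.90 and 0.50 against 0.18 and −0.80). The 12 h count fell to 13 with quantile normalization and to 10 without SCI-EtOH replicate 2 of that time. The count of 9 at 6 h became 19 without SCI-EtOH replicate 2 of that time, 4 without SCI-MP replicate 1, 2 with quantile normalization and 0 with array weights. With quantile normalization 0 factors were called at 4, 24 and 48 h, and array weights left 2 at 24 h and 3 at 48 h. Under these settings the shares of all genes at single times were not taken. Whether the 12 h difference exceeds that of other times was not tested.

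**Figure D5:**
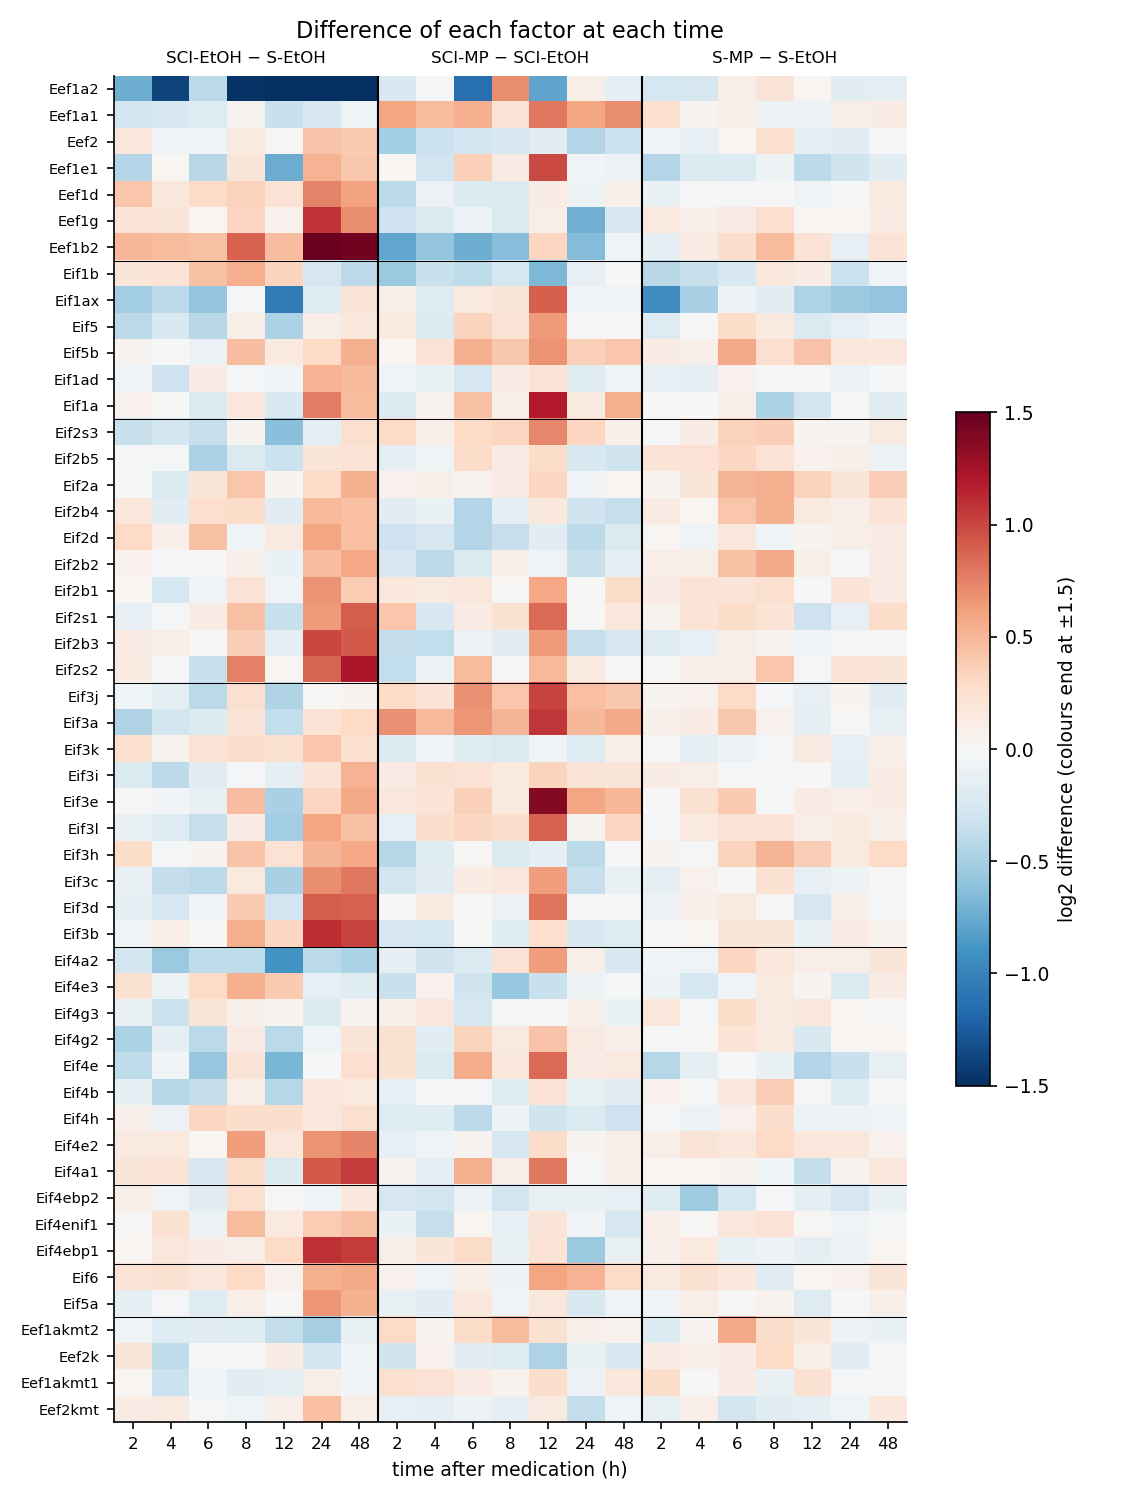
Log2 difference of each of the 51 factors (rows, grouped by role) at each time after medication in hours (columns) for injury without MP, MP after injury and MP after sham operation, in blue below 0 and red above, with colours ending at 1.5 in size. The left block is mostly red at 24 and 48 h, with Eef1a2 the deepest blue, the middle block is reddest at 12 h, and the right block is pale.

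In sham rats MP changed few factors, and more with quantile normalization or array weights. Over 7 times 7 were higher in S-MP than in S-EtOH (5.63% of all genes) and 3 lower (4.22% of all genes), with a median difference of 0.056 against 0.0022. Eif1ax, an eIF1A gene, ran from −1.15 to 0.01 in the 14 S-MP rats (median −0.26) and from −0.12 to 0.46 in the 14 S-EtOH rats (median 0.15). The ranges overlapped little, and the difference was −0.46 ± 0.09 (adjusted p = 0.00061).
Eef1e1 (−0.25 ± 0.06) and Eif4ebp2 (−0.21 ± 0.06) were also lower, and Eif2a (0.31 ± 0.07), Eif5b (0.25 ± 0.05), Eif2b4 (0.22 ± 0.05), Eif4e2 (0.17 ± 0.04) and Eif2b1 (0.15 ± 0.05) were higher at all 7 times. The calls of Eif4ebp2 and Eif2b1 were lost without the 6 h arrays (adjusted p = 0.0646 and 0.0908) and in 10 and 14 of the 60 fits that left out 1 rat. With quantile normalization the counts were 12 higher and 5 lower, where 16.5% and 13.4% of all genes were called. With array weights they were 11 and 5 (14.1% and 10% of all genes).
By time, the F test with Tukey's test gave 12 calls in all (2.22% of all gene and time pairs), with 1 factor at 2 h (0.838% of all genes), 1 at 4 h (0.977%), 4 at 6 h (3.16%), 5 at 8 h (5.59%), 1 at 12 h (3.44%), 0 at 24 h (1.07%) and 0 at 48 h (0.447%). In the limma contrasts of these single times, 1 factor at 24 h and 2 at 48 h were under an unadjusted p of 0.05. The share of all genes at that threshold was not taken, so these counts cannot be read as particular to the factors. The 12 calls in all became 38 with quantile normalization and 34 with array weights, against 26 and 35 for MP after injury (57 otherwise). Shares of all gene and time pairs were not taken under these settings.

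The MP difference depended on injury for 17 factors. The interaction, MP in injured minus MP in sham rats, was positive for 8 (5.45% of all genes) and negative for 9 (20.2% of all genes), with a median of −0.037 against −0.064. Eif1ax gave the largest positive value (0.61 ± 0.12, adjusted p = 0.0004), since MP lowered it in sham rats, while in injured rats its difference was 0.15 ± 0.09 and was not called. Eif3a (0.58 ± 0.10), Eef1a1 (0.50 ± 0.08), Eif4e (0.49 ± 0.14), Eif3j (0.47 ± 0.14) and Eif1a (0.44 ± 0.13) followed.
The largest negative values were those of Eef1b2 (−0.59 ± 0.11), Eif3h (−0.44 ± 0.09), Eif2b4 (−0.41 ± 0.08), Eif2b2 (−0.38 ± 0.07), Eif2d (−0.35 ± 0.08) and Eef1g (−0.35 ± 0.07). For Eif2b2 and Eif2b4 the direction with MP was opposite, higher in sham (0.20 ± 0.05 and 0.22 ± 0.05) and lower in injured rats (−0.18 ± 0.05 and −0.19 ± 0.05). The probe sets of Eif3h gave −0.27 and −0.61 singly.
All 17 had a 0 h difference of opposite sign, against 3328 of 3677 genes called in the interaction (90.5%), and with that difference added 0 were called. Without SCI-EtOH replicate 2 of 6 h, 13 were positive, and without replicate 1 of that time 14 were negative.

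In MP-treated rats SCI-MP exceeded S-MP in 23 factors over 7 times (21.7% of all genes) and lay below it in 10 (33.3% of all genes). The median over the 51 factors was 0.52 and 0.21 in SCI-MP at 24 h and 0.41 and 0.36 at 48 h, against −0.02 to 0.07 in S-MP. The groups did not overlap at these times.
From early to late the difference grew for 30 factors (15.9% of all genes) and shrank for 1 (8.87% of all genes), Eef1a2, with a median of 0.51. Of those 30, 27 (90%) had also grown without MP, which is 90% of the 30 that grew there too. Over all genes 1655 grew in both, 69.2% of those that grew without MP and 72.5% of those that grew with it. The rats of the 2 comparisons are separate. A direct test of whether the early to late change differed with MP called 0 factors by limma (0.0489% of all genes in either direction), and 0 at an unadjusted p under 0.05.
The largest rises with 1 direction at all times were Eif4a1 (0.52 ± 0.06), Eif3a (0.49 ± 0.07), Eif4ebp1 (0.42 ± 0.07), Eef1a1 (0.32 ± 0.06) and Eef1d (0.30 ± 0.06). The falls were Eef1a2 (−1.54 ± 0.11), Eif4a2 (−0.58 ± 0.07), Eef2k (−0.34 ± 0.06), Eif2b5 (−0.25 ± 0.06) and Eif4g3 (−0.16 ± 0.06). The Eif4g3 call was lost with quantile normalization (adjusted p = 0.107), without the 6 h arrays (adjusted p = 0.0961) and in 9 of the 60 fits that left out 1 rat. All 8 neuron markers were lower here too, with a median of −1.26, and their part was not tested.

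The factors moved with each other to unequal degrees. Over the 60 arrays, which share injury and time, the correlation of each factor with the median of the other 50 was highest for Eif5a (0.925), Eif2b3 (0.901) and Eif3c (0.893) and lowest for Eef1a2 (−0.581), Eif1b (−0.357) and Eef2k (−0.310). The genes closest to Eef1a1 were Hmgb1-ps33 (r = 0.909), Gnai3, Rap1b, Ssr1 and Ift57, of which Hmgb1-ps33 carries a pseudogene symbol. Factors with a TOP-like start and those without had median late minus early changes of 0.37 (n = 9) and 0.46 (n = 35) after injury. The split rests on the annotated start, and Eef1g, with a pyrimidine run at the upstream end of its 40-base window, counted as without. It therefore cannot separate factors with a true TOP tract from the others.

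Of 45 other genes of the translation apparatus listed beside the factors, such as eIF2 kinases, mTOR partners and release factors, 36 were measured. Injury raised 12 and lowered 9 over 7 times, and MP after injury raised 7 and lowered 16. Over all genes injury raised 35.1% and lowered 27.5%, and MP after injury raised 10.4% and lowered 31.7%.
After injury the largest rises were Ppp1r15a (1.30 ± 0.08), which restores eIF2 by dephosphorylation, the stress transcription factor Atf4 (0.73 ± 0.05) and the ribosome rescue factor Pelo (0.49 ± 0.05). The largest falls were Pdcd4 (−1.13 ± 0.08), an inhibitor of eIF4A, Mtor (−0.28 ± 0.04) and the haem-regulated eIF2 kinase Eif2ak1 (−0.24 ± 0.05).
With MP after injury Pdcd4 was higher by 0.75 ± 0.08, Ppp1r15b by 0.31 ± 0.06 and Pabpc4 by 0.30 ± 0.08. The hypusine enzyme Dohh (−0.41 ± 0.06), the mTOR brake Tsc2 (−0.33 ± 0.04) and the eIF4E kinase Mknk2 (−0.32 ± 0.06) were lower.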

How the data were processed

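Lesion-segment RNA of 60 rats was hybridised to Affymetrix rat gene arrays, 1 per rat. The authors summarised probes by robust multi-array average, normalised by chip and by gene (GeneSpring GX 11) and deposited the log2 values. The reference for the centring is not given in the sources consulted, so absolute levels cannot be read, and the number of arrays limits the precision. Probe sets with a linear CV under 50% in at least 16 of the 30 duplicate pairs were kept (27338 of 27342), and those with 1 symbol were averaged per gene. The paper reports fewer probe sets left by its own filter of this kind.

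Groups came from the sample labels. A single limma model (limma 3.58.1, R 4.3.3) with 1 mean per group and time left 30 residual degrees of freedom, and Benjamini-Hochberg adjustment ran over all 14324 genes of each contrast at 0.05. After the methods' analysis of variance with Tukey's test, a moderated F test over the 4 groups of a time was followed by Tukey's range test at 0.05. The fits were tested on simulated data. Named factors were those past the threshold with the 6 highest rises or the 6 deepest falls in each comparison over 7 times (with 1 direction at all times, except in the interaction), the extremes of each role and a list of core factors. Others named for their late values or their values at 12 h were chosen after these were seen.

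The members, lists and tests were chosen with earlier results of these data known. The late minus early contrast within MP-treated rats was added after seeing the data. Alternatives covered normalization, filtering, array weights, the replicate block, the 0 h difference and leaving out each rat. The labels do not say that duplicates came from separate surgeries, so p-values measure the spread between these rats.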

Additional observations from a re-analysis of the deposited data

Results flagged for a closer look

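A total of 17 factors had an MP difference that differed between injured and sham rats, by the interaction contrast in limma over 7 times. Over all genes 5.45% were positive and 20.2% negative, and with the 0 h difference added 0 factors were called in either direction. The interaction, in log2 units, was positive for Eef1a1 (0.50), Eef1e1 (0.41), Eif1a (0.44), Eif1ax (0.61), Eif3a (0.58), Eif3e (0.35), Eif3j (0.47) and Eif4e (0.49). It was negative for Eef1b2 (−0.59), Eef1g (−0.35), Eef2 (−0.29), Eef2k (−0.28), Eif2b2 (−0.38), Eif2b4 (−0.41), Eif2d (−0.35), Eif3h (−0.44) and Eif4h (−0.24).

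Another 32 results were differences between SCI-EtOH and S-EtOH that changed between 2 to 6 h and 24 to 48 h, by the late minus early contrast in limma. Over all genes 16.7% were positive and 14.8% negative, and with quantile normalization 11 positive and 1 negative factors were called. The change, in log2 units, was positive for Eef1b2 (0.996), Eef1d (0.38), Eef1e1 (0.74), Eef1g (0.75), Eef2 (0.39), Eif1a (0.67), Eif1ad (0.59), Eif2a (0.42), Eif2b1 (0.63), Eif2b2 (0.50), Eif2b3 (0.89), Eif2b4 (0.39), Eif2b5 (0.37), Eif2s1 (0.79), Eif2s2 (1.12), Eif3a (0.57), Eif3b (1.04), Eif3c (1.04), Eif3d (1.04), Eif3h (0.44), Eif3i (0.61), Eif3l (0.73), Eif4a1 (0.93), Eif4b (0.45), Eif4e2 (0.60), Eif4ebp1 (0.97), Eif4g2 (0.40), Eif5 (0.47), Eif5a (0.71) and Eif5b (0.43). It was negative for Eef1a2 (−1.28) and Eif1b (−0.60).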

How the results depend on the processing

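With quantile normalization, MP in sham rats raised 12 and lowered 5 factors, the late minus early change after injury was positive for 11 and negative for 1, that in MP-treated rats was negative for 0, 1 factor was called at 0 h, and the calls summed over 7 times by the F test with Tukey's test were 26 for MP after injury (57 otherwise) and 38 for MP in sham rats (12 otherwise). With array weights these were 11 and 5 for MP in sham rats over 7 times, 11 factors at 0 h, and summed calls of 35 and 34. No share of all genes was taken for the summed calls under either setting. With the 0 h difference taken off, injury raised 1 and lowered 1, MP after injury raised 0 and lowered 0, and the interaction held 0 in either direction, which rests on 4 arrays. Under this setting injury turned for Eef1akmt2 (0.0093), Eef1a1 (0.21), Eef2 (−0.10) and Eif4g2 (0.045), MP after injury for Eif2d (0.0022), Eif4h (0.076), Eif4g2 (−0.043) and Eif4a1 (−0.028), and the interaction for Eif2b2 (0.18). Beside these 9, 39 named results kept their direction but were no longer called, and 2 stayed called. The cause was not tested. A plain analysis of variance with Tukey's test summed to 30 calls for injury and 18 for MP after injury, and adjusting each contrast alone to 1 for MP in sham rats. With probe sets fitted singly 1 was called at 0 h.

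With the replicate block, 2 factors had a negative late minus early change in MP-treated rats, and no other count moved by more than 1.5 times. Duplicate 1 minus duplicate 2, over all genes, correlated at −0.574 to 0.431 between groups of the same time. These values cannot tell whether duplicates of equal number share a surgery day or a batch, and the labels do not say. Leaving out 1 rat at a time gave 8 to 13 positive and 9 to 14 negative interactions, 0 to 2 negative late minus early changes in MP-treated rats, and 7 to 22 summed calls for MP in sham rats (7 without S-MP 8 h replicate 1, 22 without SCI-EtOH 6 h replicate 1). Centring array medians, no noise filter and leaving out the 6 h arrays kept within 1.5 times the counts over 7 times, the late minus early counts and the calls summed over times, where they could be run. At single times, centring array medians moved the calls for injury at 6 h from 4 to 2, for MP after injury at 4 h from 2 to 1, and for MP in sham rats at 2 and 4 h from 1 to 0. With 2 rats per group and time, small changes at single times may be missed.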
